A study of Bos taurus with 12 samples.

Results

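The genes described here are 10 genes of extracellular matrix turnover: the matrix metalloproteinases (MMPs) MMP23, MMP2, MMP9, MMP11, MMP14 and MMP19, the tissue inhibitors of metalloproteinases TIMP1, TIMP2 and TIMP3, and the protease PLAU. A probe was assigned to a gene when the RefSeq transcript it was designed for carried that symbol. By this rule 9 of the 10 genes, of 12787 genes with a probe on the array, had at least 1 probe, with 24 probes in all, and no probe was matched to MMP11. Of the 24 probes, 15 were bright enough to be tested, that is, well above background on every array of at least 1 group, and they covered 8 genes. On each of the 12 arrays, all 15 passed that criterion. The genes were chosen by their signals in REST against CONT, which were known when the set was made, so their difference between periods is given as a description, without a p-value, and counts of their probes that passed a fit are descriptive too.

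MMPs are zinc-dependent proteases that cut collagens, laminins and other proteins of the extracellular matrix. They are made as inactive proenzymes, and the TIMPs bind the active site of the mature enzymes and block it. PLAU (urokinase) converts plasminogen to plasmin, a serine protease that degrades matrix proteins and can activate several MMPs. In the mammary gland, MMPs and plasmin are known for remodelling the stroma and the basement membrane during duct growth and during involution after lactation.

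Mammary tissue was taken by biopsy from the rear udder of 6 Holstein cows, multiparous and in midlactation per the methods of the study, and each cow was sampled in both periods. CONT was day 0, when the cows ate a lactation diet without restriction, and REST was day 6 of a restriction that supplied 50% of the net energy required for lactation. The 2 biopsies of a cow came from alternate rear glands, so period and gland cannot be told apart. The series description counts 5 cows and the labels give 6 (here cows 1 to 6). The methods of the study enrol 6 Holstein cows, exclude a Holstein cow for mastitis and do not name the animal. If the 6 cows here are the 6 enrolled, it is among them. Which cow it is was not given, and each cow was therefore also left out in turn. A biopsy holds several cell types, and fewer cells of a type cannot be told apart from less RNA per cell.

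Cows 1 and 2 lay on slide 1, cows 3 and 4 on slide 2 and cows 5 and 6 on slide 3, with both periods of a cow on the same slide. The arrays of slide 3 were dimmer: 41.9 to 48% of their spots were well above background, against 61.8 to 67.9% on slides 1 and 2. The 75th percentile of the unscaled signal was higher in REST in 6 of 6 cows, by 0.30 ± 0.10 (SD, n = 6) on the log2 scale. Levels below are log2 signals relative to the 75th percentile of the array, and they are compared within a probe only. Differences are REST minus CONT within a cow, given as the mean ± SD over 6 cows.

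MMP23, a membrane-anchored MMP without the hemopexin domain that most MMPs carry, was lower in REST in every cow and with both of its probes (A_73_105032 and A_73_P333296, transcript NM_001038556). In the RefSeq gene table of assembly ARS-UCD2.0 the gene lies between CDK11B and MIB2. With the brighter probe, the 6 CONT levels ran from 0.47 over a median of 1.06 to 1.56. The 6 REST levels ran from -0.92 over a median of 0.18 to 0.65. The 2 groups of arrays overlapped with this probe, as the REST level of cow 5 was above the CONT level of cow 4 (0.65 and 0.47).

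The difference between periods was -0.97 ± 0.53, a signal 1.96-fold lower in REST. By cow it was -1, -1.96, -0.86, -0.70, -0.92 and -0.41 for cows 1 to 6. Cow 2 had the largest difference and cow 6 the smallest, and without cow 2 the mean was -0.78. Within slides 1, 2 and 3 the mean difference was -1.48, -0.78 and -0.66.

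The dimmer MMP23 probe gave the same mean with less spread. Its CONT levels lay between -1.01 and -0.61 with a median of -0.83, and its REST levels between -2.17 and -1.5 with a median of -1.78. The groups did not overlap, as every REST array was below every CONT array. The difference was -0.97 ± 0.31, 1.95-fold, and by cow it was -0.73, -1.57, -0.95, -0.78, -0.90 and -0.86. Cow 2 again stood out, while the other cows lay between -0.95 and -0.73.

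**Figure D1:**
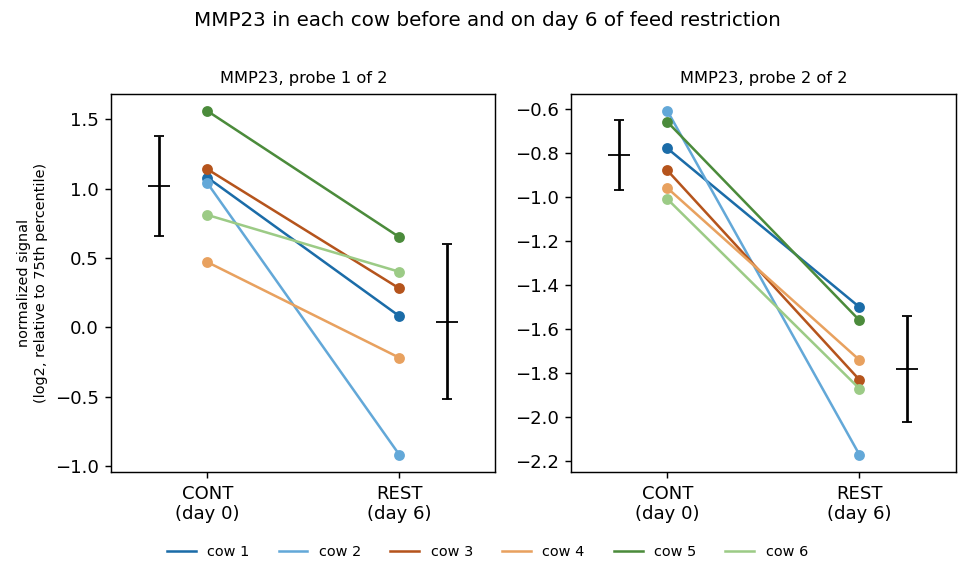
MMP23 signal (y axis, log2 relative to the 75th percentile of the array) in CONT and REST (x axis) for its 2 probes. Each line is a cow, and the black marks are group means with SD (n = 6). All 6 lines go down with both probes, the line of cow 2 most steeply, and the groups are fully separate with probe 2.

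MMP2, MMP9 and MMP19 are secreted enzymes: MMP2 and MMP9 are the gelatinases, which cut basement membrane collagen and denatured collagen, and MMP19 cuts several basement membrane proteins. None of these genes had a mean difference beyond the SD of its cows. MMP2 (NM_174745) had 2 tested probes. With the brighter, CONT levels ran from -0.67 over a median of -0.49 to -0.14, and REST levels from -0.96 over a median of -0.34 to 0.22. The groups overlapped and the difference was 0.13 ± 0.44, with cow 1 lower and the other 5 cows higher in REST.

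The second tested MMP2 probe had an SD of 0.06 in CONT and 0.67 in REST, beside 0.21 and 0.39 with the brighter probe. The difference in spread was not tested. Its CONT levels lay within -1.46 and -1.30, and its REST levels between -2.44 and -0.57, around a mean difference of -0.08 ± 0.67. In both probes cow 1 had the lowest difference (-0.46 and -1.11) and cow 3 the highest (0.89 and 0.73). Of the other 2 MMP2 probes, one was well above background on 3 CONT and 4 REST arrays and one on none.

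MMP9 (NM_174744) had 1 tested probe. Its CONT levels were between -0.45 and -0.35 in cows 2 to 6 and -1.68 in cow 1, and its REST levels ran from -1.73 in cow 1 over a median of -0.64 to 0.90 in cow 5. The groups overlapped. The mean difference was 0.06 ± 0.66, and it was -0.19 without cow 5, whose own difference was 1.34. The other MMP9 probes were at background, except that 1 of them was well above background on the REST array of cow 5, at -2.47, and on no other array.

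MMP19 (NM_001075983) had 1 tested probe as well. It ran from -2.27 over a median of -1.94 to -0.71 in CONT and from -2.26 over a median of -0.90 to -0.07 in REST, and the groups overlapped. The difference was 0.67 ± 0.79. It was 2.09 in cow 5, 1.01 in cow 3, 0.61 in cow 6, and between 0.00 and 0.17 in cows 1, 2 and 4. Without cow 5 the mean fell to 0.39. The 2 other MMP19 probes were each well above background on at most 2 arrays of a group.

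The REST array of cow 5, which carried the highest levels of MMP9 and MMP19, also carried the highest level of CD68, a lysosomal protein of macrophages, at 1.07 against -0.74 to 0.01 on the other 11 arrays. CD68 was picked from 6 tested macrophage markers after its value was seen. The summed linear signal of the 6, relative to the 75th percentile, was 13.9 on that array, below the 14.8 of the same cow in CONT, which was the highest of all arrays. The other CONT arrays ran from 8.16 to 13.1 and the other REST arrays ran from 7.88 to 12.4, with MSR1 alone giving 4.4 to 50.5% of the sum. The part of macrophages in the MMP9 and MMP19 values was not tested.

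MMP14, the membrane-type enzyme that activates the MMP2 proenzyme in a complex with TIMP2, had 1 probe (NM_174390), which was too dim to be tested. It was well above background on 3 CONT arrays (cows 2, 3 and 4) and 4 REST arrays (cows 1 to 4), and on none of the arrays of slide 3. As measured, CONT levels ran from -4.44 over a median of -4.03 to -3.26, and REST levels from -3.34 over a median of -3.01 to -2.78. The groups overlapped by the CONT array of cow 3. The difference was 0.91 ± 0.38, higher in 6 of 6 cows, with 0.17 in cow 3 and 0.92 to 1.23 in the others.

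PLAU (NM_174147) ran from 0.55 over a median of 0.79 to 1.37 in CONT and from 0.04 over a median of 0.54 to 0.90 in REST with its 1 tested probe. The groups overlapped. The difference was -0.37 ± 0.44, lower in 5 of 6 cows, and it was widest in cow 6 (-1.05) and cow 4 (-0.67), with cow 2 at 0.09. Without cow 6 the mean was -0.23. Both other PLAU probes were at background on all 12 arrays.

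**Figure D2:**
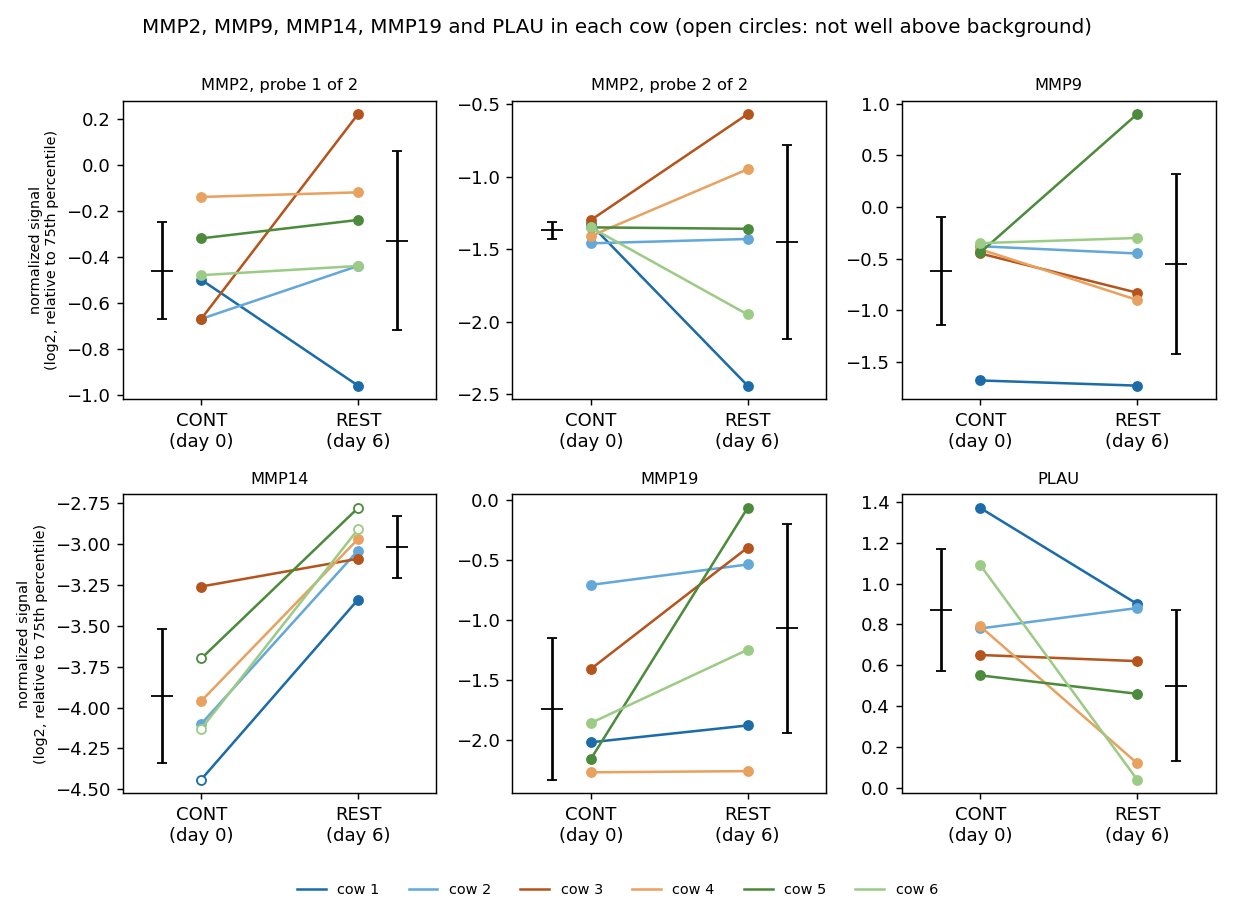
Signal (y axis, log2 relative to the 75th percentile of the array) of MMP2 (2 probes), MMP9, MMP14, MMP19 and PLAU in CONT and REST (x axis). Each line is a cow, black marks are group means with SD (n = 6), and open circles are arrays on which the probe was not well above background. The MMP9 and MMP19 lines of cow 5 rise most steeply, and the 6 MMP14 lines all go up, with open circles for cows 5 and 6 in both periods and for cow 1 in CONT.

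The 3 inhibitors differed in direction. TIMP2 was higher in REST, TIMP3 was lower, and TIMP1 differed by less than the spread between cows. In the RefSeq table TIMP1 lies within SYN1 and TIMP3 within SYN3.

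TIMP3, the inhibitor that stays bound to the matrix and also blocks several ADAM proteases, had 3 tested probes (NM_174473), all with a lower mean in REST. The brightest ran from 1.22 over a median of 1.38 to 1.46 in CONT and from 0.56 over a median of 0.94 to 1.5 in REST. The groups overlapped only through cow 6, which had the highest REST level. The difference was -0.39 ± 0.33, lower in 5 of 6 cows, and cow 2 had the widest gap (-0.90).

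The other TIMP3 probes were lower in REST in 6 of 6 cows. Their differences were -0.41 ± 0.16 and -0.51 ± 0.23. The CONT and REST levels of the former were 0.16 ± 0.23 and -0.26 ± 0.29, and those of the latter -1.66 ± 0.27 and -2.17 ± 0.21. Cow 6 was the widest for the dimmest probe (-0.83) and the exception for the brightest (0.09), so the probes disagreed on that animal.

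TIMP2, which inhibits MMPs and also takes part in the activation of the MMP2 proenzyme, had 3 tested probes (NM_174472), all with a higher mean in REST. With the brightest, CONT levels ran from 2.51 over a median of 2.83 to 3.16 and REST levels from 2.99 over a median of 3.16 to 3.49. The groups overlapped, yet every cow was higher in REST, by 0.36 ± 0.24. The difference was widest in cow 5 (0.73) and cow 3 (0.57) and narrowest in cow 4 (0.10).

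The second TIMP2 probe was also higher in 6 of 6 cows, by 0.33 ± 0.28, and the third in 4 of 6, by 0.23 ± 0.33. In all 3 probes cows 5 and 3 had the 2 widest differences. These 2 cows were also the 2 widest for MMP19. Genes measured on the same arrays share the error of those arrays.

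TIMP1, a secreted inhibitor of most MMPs, had 2 tested probes (NM_174471). The brighter was 0.75 ± 0.46 in CONT and 0.78 ± 0.29 in REST, a difference of 0.03 ± 0.41. The dimmer was -1.48 ± 0.44 and -1.52 ± 0.48, a difference of -0.04 ± 0.51. In both probes cows 3 and 4 were higher in REST, by 0.31 to 0.53, and cow 2 was lower, by 0.65 and 0.58.

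**Figure D3:**
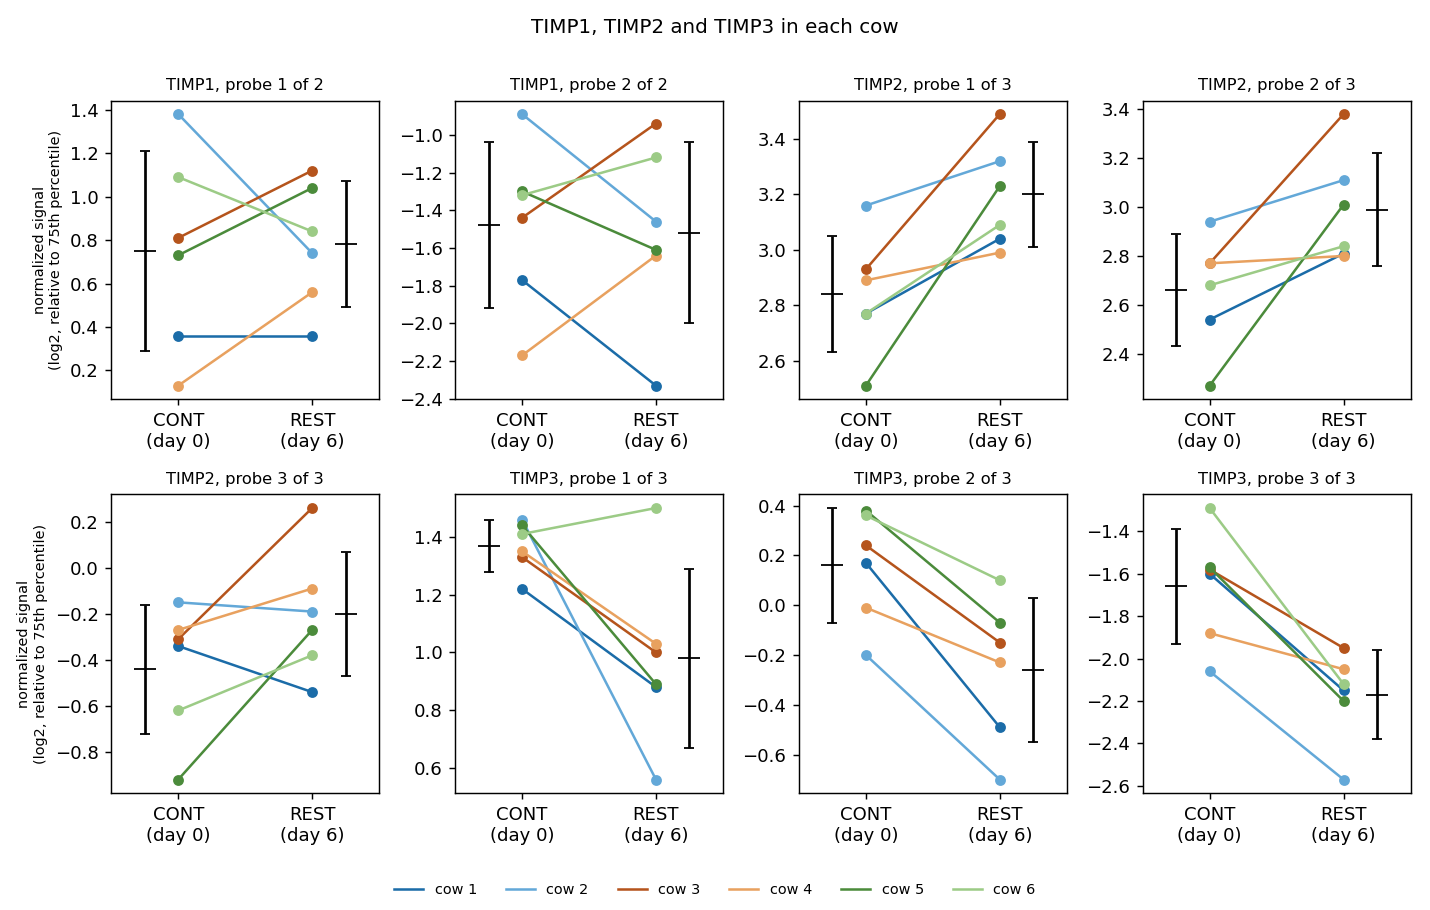
Signal (y axis, log2 relative to the 75th percentile of the array) of TIMP1 (2 probes), TIMP2 (3 probes) and TIMP3 (3 probes) in CONT and REST (x axis). Each line is a cow and black marks are group means with SD (n = 6). The lines cross for TIMP1, go up in every cow for TIMP2 probes 1 and 2, and go down for TIMP3 except for cow 6 with probe 1.

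Over the 15 tested probes, 8 had a lower and 7 a higher mean in REST, and the median difference was -0.04, beside 0 over all 19406 tested probes. In the fit without the cow (limma, Benjamini-Hochberg adjusted p under 0.1), 3 of the 15 probes passed, both of MMP23 and 1 of TIMP3, all lower. Over all tested probes the share was 4.31%, with 2.73% lower and 1.58% higher. A fit with the cow as a block passed 7 of the 15, and 16% of all tested probes, 8.78% lower and 7.22% higher. These were the 2 MMP23 and 3 TIMP3 probes, lower, and 2 of the TIMP2 probes, higher. Without cows 1 to 6 in turn the count of 3 was 1, 2, 1, 1, 2 and 3, while the share of all tested probes was 1.06, 1.45, 2.31, 0.999, 3.07 and 2.6%. With the block the count of 7 was 4, 4, 4, 5, 4 and 5, while the share was 7.9, 5.38, 12, 6.14, 16.2 and 12.1%. No TIMP2 probe passed in these, except 1 without cow 4. Because the comparison was known when the genes were chosen, these counts describe the members and are no evidence about them.

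Of the 15 probes, 4 were lower in 6 of 6 cows and 3 were higher in 6 of 6, where 9.78% and 7.77% of all tested probes were. The former were those of MMP23 and 2 of TIMP3, and the latter were 2 of TIMP2 and that of MMP19. The dimmer MMP23 probe was the only one of the 15 whose groups did not overlap, with REST lower, as for 1.51% of all tested probes.

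**Figure D4:**
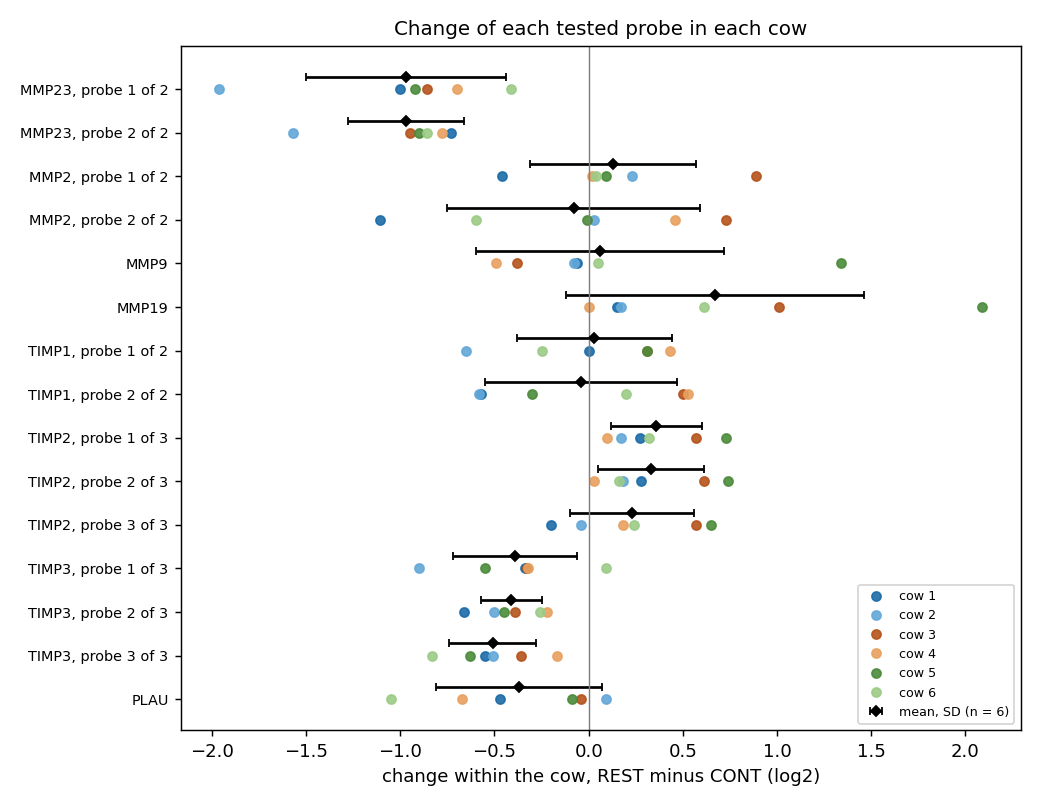
Difference within each cow, REST minus CONT (x axis, log2), for the 15 tested probes (y axis). Coloured points are cows, and black diamonds with bars are the mean and SD (n = 6). All MMP23 points lie left of 0, TIMP2 points lie mostly right and TIMP3 points mostly left of it, and the points of MMP2, MMP9 and TIMP1 lie on both sides.

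Differences between cows did not enter the choice of the genes and were tested within slides (cow 2 minus 1, cow 4 minus 3, cow 6 minus 5, each over both periods). None of the 15 probes passed in limma's moderated F test at an adjusted p under 0.1, where 4.97% of all tested probes did, and the smallest adjusted p was 0.157. At an unadjusted p under 0.05, 4 of the 15 passed, where 17% of all tested probes did. They were the probe of MMP19, the probe of MMP9 and both probes of TIMP1.

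MMP19 had the smallest unadjusted p (limma, 0.0118): cow 2 minus cow 1 was 1.32, cow 4 minus cow 3 was -1.36 and cow 6 minus cow 5 was -0.44 (limma, adjusted p = 0.157). For MMP9 the same differences were 1.29, -0.02 and -0.56 (limma, adjusted p = 0.234). The 2 TIMP1 probes had the same signs, with 0.70 and 0.88 for cow 2 minus cow 1, -0.62 and -0.71 for cow 4 minus cow 3 and 0.08 and 0.23 for cow 6 minus cow 5 (limma, adjusted p = 0.239 and 0.222). For the brighter MMP23 probe the differences were -0.52, -0.59 and -0.50 (limma, adjusted p = 0.358). For the dimmer MMP23 probe they were -0.25, 0 and -0.33 (limma, adjusted p = 0.614).

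Other genes of pericellular proteolysis were read from 6 lists with 80 genes, of which 56 had a probe and 29 were tested. Without the cow in the fit, A2M and LAMB2 rose and COL4A1 fell, 3 of 29 genes where 4.41% of all 7932 tested genes passed. With the cow as a block, PLAT also rose and HPN and BSG also fell, so that 3 of 29 were higher and 3 lower, where 16.2% of all genes passed, 6.95% higher and 9.27% lower. Over the 29 genes, 9 had a higher and 20 a lower mean in REST, with a median of -0.15, beside -0.01 over all genes.

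Among the other inhibitors, A2M, a broad plasma protease inhibitor that traps MMPs and plasmin, rose from 0.79 ± 0.47 to 1.79 ± 0.32. The difference was 1 (SE 0.21, limma adjusted p = 0.0308, 0.0105 with the cow as a block), higher in 6 of 6 cows. TIMP4 and TFPI2 did not pass, at -0.15 and -0.04. The A2M call was lost in the fit without the block when cow 4 (adjusted p = 0.125) or slide 3 (adjusted p = 0.103) was left out.

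Among the basement membrane proteins, which are substrates of several MMPs, 6 of 7 tested genes had a lower mean in REST, beside 4095 of all 7932 tested genes, and 5 of these 6 (LAMA4, LAMB1, LAMC1, NID1 and NID2) passed in neither fit. COL4A1, a type IV collagen chain, fell from 4.22 ± 0.36 to 3.45 ± 0.32, by 0.77 (SE 0.183, limma adjusted p = 0.0502, 0.0104 with the block), in 6 of 6 cows. Its call in the fit without the block was lost without cow 1, 4, 5 or 6 (adjusted p = 0.175, 0.132, 0.135 and 0.113), with slide 3 left out (0.241), and with median spot signals corrected by normexp and scaled by the 75th percentile or quantiles (0.13 and 0.105). LAMB2, a laminin chain, rose by 0.51 (SE 0.10, limma adjusted p = 0.022, 0.0189 with the block), and its groups did not overlap, as for 0.747% of all tested probes with REST higher. Without cow 1 its adjusted p was 0.116 in the fit without the block.

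In the plasminogen system, PLAT, the tissue-type plasminogen activator, went from 1.90 ± 0.34 to 2.42 ± 0.25, which passed with the cow as a block and missed without it (limma adjusted p = 0.0152 and 0.121). Without the cow it passed with the slide as a block (0.0112), after quantile normalization (0.0948) and with the normexp-corrected median signals under either scaling (0.022 and 0.0474). The other 4 tested genes did not pass. Among the activators and inducers, HPN, a membrane serine protease, was at -0.61 and BSG, which induces MMPs in neighbouring cells, at -0.39, and both passed with the block and missed without it (limma adjusted p = 0.251 and 0.121 without it, 0.0308 and 0.0582 with it). The groups of BSG did not overlap, as for 1.51% of all tested probes with REST lower. BSG also passed with the slide as a block (0.0665), and the HPN call with the cow as a block was lost with slide 3 left out (adjusted p = 0.111). The BSG call with the block was lost without cow 1, 2 or 4 (adjusted p = 0.143, 0.166 and 0.156). No gene of the 8 tested ADAM and ADAMTS proteases passed in either limma fit, with differences from -0.67 to 0.26, and 1 of them had an unadjusted p under 0.05 (2 with the block).

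Few other MMPs were measurable. Of 17, 9 had a probe, and 7 of these (MMP3, MMP7, MMP12, MMP13, MMP16, MMP20 and MMP27) were not well above background on any array. MMP1 was so on 8 of 12 arrays, and MMP15, the only one tested, was at -0.04 (limma adjusted p = 0.92).

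**Figure D5:**
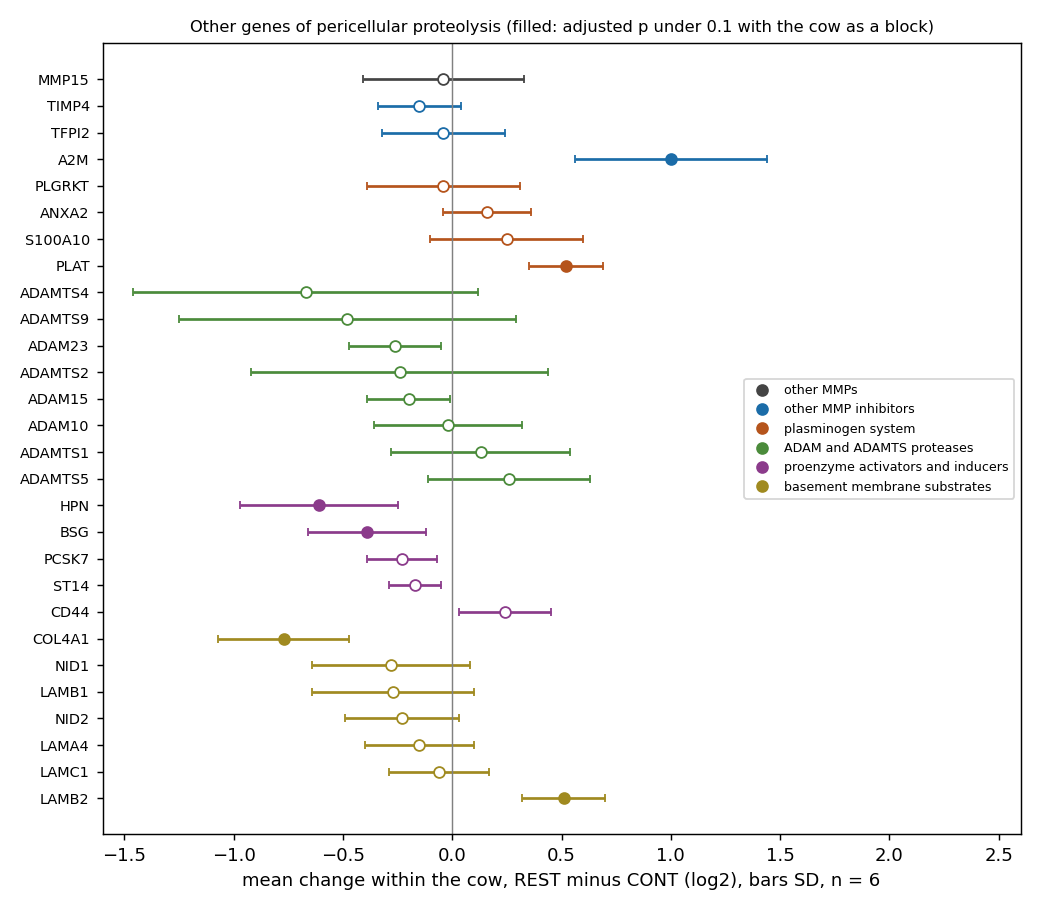
Mean difference within the cow, REST minus CONT (x axis, log2, bars SD, n = 6), of 28 other tested genes of pericellular proteolysis (y axis), coloured by list. Filled points passed at an adjusted p under 0.1 with the cow as a block: A2M, PLAT and LAMB2 right of 0 and HPN, BSG and COL4A1 left of it.

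The tissue carried the markers of lactating mammary epithelium: 7 of 9 luminal markers were tested, with LALBA and ELF5 among them. Fibroblasts, macrophages and endothelium also make MMPs and TIMPs. None of the 9 tested fibroblast markers and none of the 6 tested macrophage markers passed in either limma fit (1 and 0 had an unadjusted p under 0.05, and 3 and 1 with the block), and the summed fibroblast signal was 83.7 to 109 in CONT and 73.5 to 154 in REST. The summed signal of the 5 tested endothelial markers was higher in REST in 6 of 6 cows (8.43 to 11.4 in CONT, 10.2 to 12.5 in REST). VWF, which gave 39.3 to 60.7% of that sum, rose by 0.54 (limma adjusted p = 0.0539), and PECAM1, TEK, CDH5 and KDR did not pass, at 0.32, 0.13, 0.03 and -0.15. The summed luminal signal was lower in 6 of 6 cows (1100 to 1560 and 1030 to 1330), but LALBA, which did not pass, made up 71.1 to 85% of it. By gene, 5 of the 7 had a higher mean in REST, with a median of 0.33. KRT7, KRT8 and KRT18 rose with the cow as a block, as 6.95% of all tested genes did. Without the block they missed (limma adjusted p = 0.171, 0.133 and 0.508). Of 8 tested myoepithelial markers 4 had a higher and 4 a lower mean, and their summed signal was lower in 5 of 6 cows. CNN1 and ACTA2 fell with the block, as 9.27% of all tested genes did, and missed without it (limma adjusted p = 0.294 and 0.45). FABP4, the only tested adipocyte marker of 6, fell with the block and missed without it (limma adjusted p = 0.0447 and 0.194). Of the others with a probe, PLIN1 was well above background on no array, LEP on 4, CIDEC on 8 and LIPE on 9. Of 6 tested lymphocyte markers CD3E rose with the block, by 0.35 (limma adjusted p = 0.0781, 0.226 without it), and neither of 2 tested neutrophil markers passed in limma or had an unadjusted p under 0.05. The part of these cell types in the differences of MMP23, TIMP2 and TIMP3 was not tested.

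The 5 genes whose levels followed those of the brighter MMP23 probe most closely over the 12 arrays were TERC, MYBPC1, NME2, ERCC5 and ATP5PB. Their correlations were 0.92, 0.92, 0.90, 0.90 and 0.88 (Pearson). They encode, in that order, the RNA part of telomerase, a myosin-binding protein, a nucleoside diphosphate kinase, a DNA repair nuclease and a subunit of the ATP synthase. The 12 points share 6 cows, 3 slides and 2 periods, and the 5 genes were the highest of 7932, so no p is given.

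All 5 were lower in REST in 6 of 6 cows, as MMP23 was, so part of each correlation is the period. With the group means removed, the correlations were 0.82, 0.82, 0.78, 0.79 and 0.71. MYBPC1 was nearest to MMP23 in size, with a difference of -1.03 ± 0.54, and like MMP23 had its largest difference in cow 2 (-1.78). ATP5PB differed by -0.20 ± 0.08 over a far narrower range.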

How the data were processed

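Total RNA (50 ng) was labelled with Cy3 and hybridised to one-colour bovine arrays with 45220 spots, of which 43803 were not controls. Per the labels and file headers, the authors extracted intensities with Agilent Feature Extraction 11 (background-subtracted, detrended processed signal, linear scale). The deposited series table held the same intensity in all 542640 cells, without scaling between arrays.

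The processed signal was log2-transformed here from the deposited intensities, and the 75th percentile of each array was subtracted. Repeat spots (50 probes) were averaged, and spots the scanner software called non-uniform or population outliers were left out. Symbols came from RefSeq transcripts. The array annotation uses another assembly than the gene table, so no positions are given. The periods were compared in limma 3.58.1 in R 4.3.3 (two-sided, Benjamini-Hochberg over 19406 probes, threshold 0.1), without the cow, since the methods of the study state no pairing, and with the cow as a block, since each pair of samples came from 1 animal (deviations of the same cow correlated at 0.356 to 0.574, those of different cows at -0.326 to 0.134). Lists used the brightest tested probe of a gene. Figures were drawn with matplotlib.

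The genes, lists and tests were chosen with earlier results of these data known. Named genes were all members, at most 4 called genes per list, and the 5 most correlated with MMP23. Uncalled genes (TIMP4, TFPI2, LAMA4, LAMB1, LAMC1, NID1, NID2 and the other MMPs) and cell type markers were named beside them after their values were seen. For 1 listed gene, which is part of the counts, no values are reported here. Precision is set by 6 arrays per group.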

Additional observations from a re-analysis of the deposited data

Results flagged for a closer look

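Of 52 groups of 6 values examined for a sample far from the others, 2 stood out, where chance gives about 2.6. For MMP9, the CONT array of cow 1 (-1.68) lay apart from the other CONT arrays (-0.45 to -0.35), and the gap was 0.928 of the range of the group. The REST array of cow 1 was low as well (-1.73). For ERCC5, the CONT array of cow 5 (5.58) lay above the others (5.08 to 5.25), with a gap of 0.652 of the range.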

How the results depend on the processing

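The count of probes called between REST and CONT was 837 (307 higher, 530 lower), and it moved with several choices. It was 476 after a median shift, 201 with normexp correction (offset 50) and the 75th percentile shift (97 higher, 104 lower), which also took the median in place of the processed signal, 95 with no filter on dim probes, 1899 with the slide as a block, and 401 with slide 3 left out (chosen after seeing the data). With the replicate block, which pairs the samples of a cow, it was 3105 with the cow as a fixed term and 3549 with the cow as a random block. It ran from 194 to 616 when each cow was left out. For the other pathway genes the count of 3 became 0 with no filter, 5 with the slide as a block, 6 and 7 with the replicate block (fixed and random), 1 with slide 3 left out, and 1 to 3 with a cow left out. With no filter, 6 of 56 genes had an unadjusted p under 0.05 in limma, and the adjustment then ran over all 43653 probes. The count of probes that differed between cows stayed between 888 and 1126. Under normexp with the 75th percentile shift, MMP19 (limma adjusted p = 0.0298) and the dimmer TIMP1 probe (0.0807) passed between cows, and no member probe passed under the other settings.

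With the brightest probe of each gene, the differences of MMP23 (-1.13 to -0.68), TIMP3 (-0.49 to -0.09), PLAU (-0.46 to -0.07), TIMP2 (0.28 to 0.66) and MMP19 (0.21 to 0.97) kept their sign under all 15 alternatives, while those of MMP2, MMP9 and TIMP1 changed sign under 1, 3 and 4 of them. These alternatives included the deposited table, which held the same intensities and so had to give the same differences. They also included the mean over all tested probes in place of the brightest. The dimmer MMP23 probe was at -0.58 after normexp with quantile normalization. Without any scaling between arrays TIMP2 was at 0.66 and TIMP3 at -0.09. The TIMP3 call without the block was lost without cow 1, 3, 4 or 5, with slide 3 left out, after a median shift, after normexp with the 75th percentile shift, with no filter, with trend and robust, and in the methods' t-test read as unmoderated. Of the 2 MMP23 probes 1 no longer passed without cow 1, 2, 3 or 4, with slide 3 left out, after normexp with the 75th percentile shift, with no filter and in that t-test. With slide 3 left out, 17 member probes were tested. With the block, 4 of these passed (2 of MMP23 and 1 of TIMP3, lower, and that of MMP14, higher), where 10.5% of all tested probes did. The MMP14 probe became testable only through REST, the group where it was higher, as the CONT array of cow 1 was not well above background. Its pass is therefore a description only. In the pathway lists the count of 3 under both normexp settings had PLAT in place of COL4A1.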
